A study of Homo sapiens with 27 samples.

Results

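SKNO1 is a human acute myeloid leukaemia cell line that expresses the RUNX1-RUNX1T1 fusion and is kept with the growth factor GM-CSF. RNA from SKNO1 cells given CARM1 hairpin 1 was compared with RNA from SKNO1 cells given a scramble hairpin, over all genes of the deposited table. The comparison rests on 6 of the 27 libraries of the series, 3 with hairpin 1 and 3 with scramble, chosen by their labels. In both groups the hairpin came from a constitutive lentivirus, the medium held 10 ng/mL GM-CSF, and RNA was sequenced 3 days after delivery of the hairpin. The other 21 libraries are 3 of SKNO1 with a different CARM1 hairpin, called hairpin 2, and 9 each of MOLM-13 (written MOLM13 below) and MV411 with hairpin 1, hairpin 2 or scramble, for which the labels give no supplement. MOLM-13 and MV411 are leukaemia lines with KMT2A rearrangements. The study asked what the loss of CARM1, also named PRMT4, does to leukaemia cells of these 3 lines. The labels do not say whether the 3 replicates of a group came from separate cultures or infections, so the p-values measure only the spread between these samples.

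CARM1 is a protein arginine methyltransferase that places asymmetric dimethyl marks on histone H3 and on coactivators, splicing factors and transcription factors, RUNX1 among them. It is known in myeloid cells as a coregulator that affects differentiation and the cell cycle. A short hairpin RNA lowers the level of the transcript it matches, and 2 hairpins against 1 gene share that target but not their own sequence. The sequences of the hairpins were not used here.

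The libraries held 32392863 to 40389063 expected counts with hairpin 1 and 35452693 to 36330780 with scramble. Levels are given as CPM, the counts of a gene relative to the TMM-scaled total of its library, and fold changes as log2 of hairpin 1 over scramble ± the fitted standard error. A gene is said to have risen or fallen where the edgeR quasi-likelihood test gave a Benjamini-Hochberg adjusted p below 0.05 over all genes tested. The defining markers of the line were checked: RUNX1T1, the fusion partner, had 2345 to 4787 counts in every SKNO1 library, against 0 to 4 in MOLM13 and 0 to 1 in MV411, and the stem cell marker CD34 had 0 to 2 counts in every SKNO1 library. Summed markers of T cells and of stroma were at 0.0587 to 0.0783 and 0 to 0.0639 CPM with hairpin 1, against 0 to 0.110 and 0 to 0.0827 CPM with scramble. Summed B cell markers were at 49.6 to 60.7 CPM with hairpin 1 and 37.2 to 39.8 CPM with scramble, and summed monocyte markers at 30.9 to 44.1 CPM with hairpin 1 and 42.2 to 60.1 CPM with scramble. Of the 6 B cell markers 2, and of the 9 monocyte markers 1, were at 0 in both groups, and the part of either list in the results was not tested.

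The 6 libraries differed in how level followed the GC content of the transcript. Over 9987 protein-coding genes, Spearman's rho between a gene's deviation from its own mean and its GC content was 0.690, 0.0368 and 0.708 in hairpin 1 replicates 1, 2 and 3, against 0.239, -0.486 and 0.598 in the scramble replicates. The fold change itself had a rho of 0.671 with GC content, and hairpin 2 over scramble had 0.274. Hairpin 1 over scramble in MOLM13 and MV411 had 0.00166 and -0.0644. These correlations run across genes, which are not independent replicates, and describe these libraries. Structured RNAs such as 7SL took 24.6% ± 0.851 of the counts with hairpin 1 and 18.6% ± 1.14 with scramble (SD, n = 3 each; exact permutation test, two-sided p = 0.1, the smallest that 3 against 3 can give). Of 8 such RNAs tested, RN7SL2 and RMRP rose by 0.62 and 0.61 (edgeR, adjusted p = 0.0401 and 0.0435), and neither passed after GC correction. How far GC content accounts for any gene below was not tested, and values after a correction for the GC trend of each library are given beside the genes called and the main lists.

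**Figure D1:**
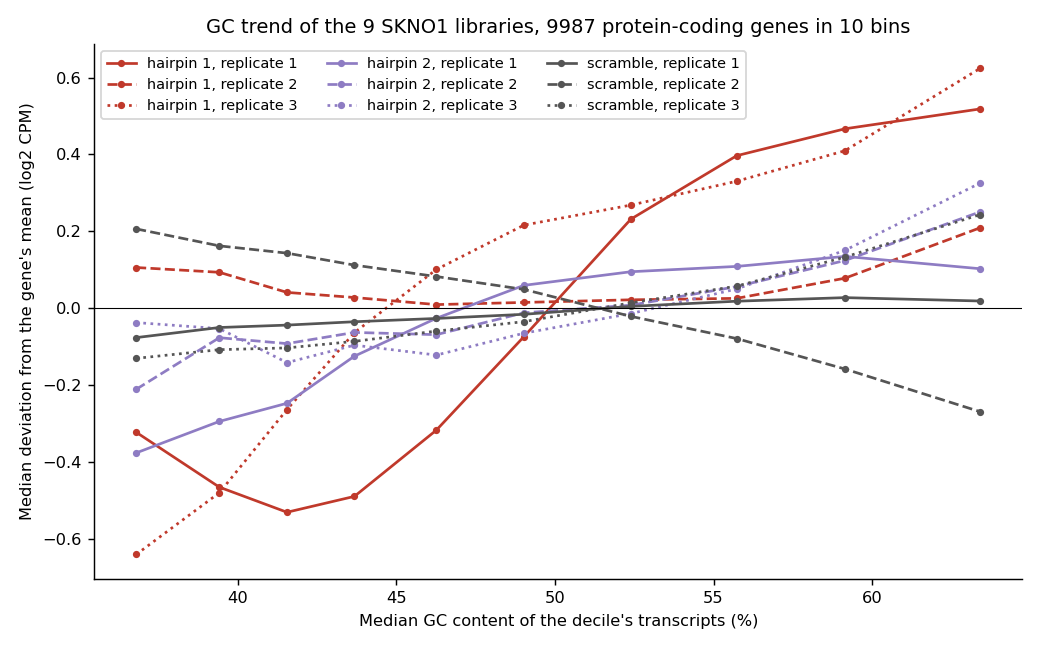
Median deviation from a gene's mean log2 CPM (vertical axis) against the median GC content of 10 bins of 9987 protein-coding genes (horizontal axis, percent) in the 9 SKNO1 libraries. Hairpin 1 replicates 1 and 3 climb with GC content, hairpin 1 replicate 2 is nearly flat, and scramble replicate 2 descends.

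The targeted gene was checked first. CARM1 (ENSG00000142453, plus strand, chr19:10871513-10923070, GRCh38 with GENCODE 29) had 10.0, 7.02 and 10.6 CPM with hairpin 1, against 19.6, 21.6 and 24.3 CPM with scramble. In expected counts these were 313.12, 269.3 and 361.7 with hairpin 1, against 770.14, 784.92 and 987.73 with scramble. Every hairpin 1 library lay below every scramble library, and CARM1 fell by 1.25 ± 0.19 on the log2 scale (edgeR quasi-likelihood test, adjusted p = 0.0214). The cells kept 42.1% ± 8.80 of the scramble level (SD, n = 3), with 45.8%, 32.1% and 48.6% in the replicates. An exact permutation test of 3 against 3 gave p = 0.1, two-sided, the smallest it can give. Hairpin 2 left 15.4% ± 0.607 in SKNO1, and hairpin 1 left more CARM1 RNA than hairpin 2 (log2 difference 1.45, adjusted p = 0.000957). Without hairpin 1 replicate 3, scramble replicate 1 or scramble replicate 3, the adjusted p of CARM1 was 0.0653, 0.129 or 0.133, with log2 fold changes of -1.40, -1.29 and -1.14. After GC correction the log2 fold change was -1.63 (adjusted p = 0.00136).

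The other arginine methyltransferases did not pass the test. Of the 11 tested members of a list of these enzymes and their partners, CARM1 was the single one called. PRMT5, the main enzyme for symmetric dimethyl marks, had 158, 128 and 147 CPM with hairpin 1, against 104, 120 and 101 CPM with scramble (log2 fold change 0.42 ± 0.15, adjusted p = 0.194). PRMT1, the main enzyme for asymmetric dimethyl marks, had 186, 186 and 236 CPM with hairpin 1, against 143, 165 and 152 CPM with scramble (0.40 ± 0.16, adjusted p = 0.221). The hairpin 1 libraries lay above the scramble libraries for both enzymes without reaching the threshold. PRMT2 had -0.32 (adjusted p = 0.285), and PRMT3, PRMT6, PRMT7 and PRMT9 had 0.24, 0.26, 0.31 and 0.01.

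Few genes passed the threshold with hairpin 1 in the main fit. Of 18430 genes tested, 98 passed the threshold (0.532%), 47 higher (0.255%) and 51 lower (0.277%). The hairpin 1 and scramble libraries did not overlap for any of the 98. Genes without overlap made up 20% of all genes tested (10.7% higher, 9.32% lower). An unadjusted p below 0.05 was reached by 3124 genes (17%), 1744 higher (9.46%) and 1380 lower (7.49%). Of the 98, 22 rose and 38 fell by more than 2-fold, and 92 were protein-coding. Hairpin 2 against the same scramble libraries gave 2069 calls (11.2%), 1021 higher (5.54%) and 1048 lower (5.69%).

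The count of 98 depends on single libraries. It was 28 without hairpin 1 replicate 1, 411 without hairpin 1 replicate 2 and 6 without hairpin 1 replicate 3, and 3, 50 and 6 without scramble replicate 1, 2 or 3. Of the 98 genes, 24, 95, 6, 3, 33 and 6 were still called in these fits, in that order. PRKAR2B and HBB were among those called in each of the 6. GC content separated the calls by direction: the median was 60.5% for the 47 higher genes and 41.7% for the 51 lower genes, against 48.1% for all genes, with 47 higher and 6 lower genes above the median of all. After GC correction 64 genes passed, 16 higher and 48 lower, and 11 of the 47 higher and 26 of the 51 lower genes were still among them.

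**Figure D2:**
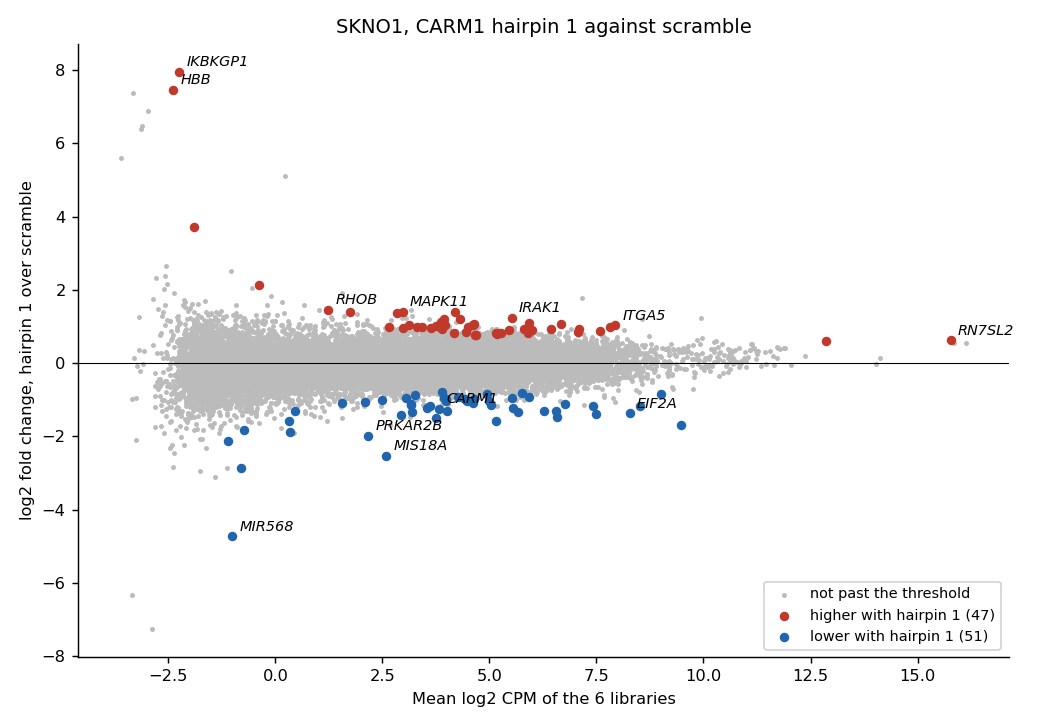
Log2 fold change of hairpin 1 over scramble (vertical axis) against the mean log2 CPM of the 6 libraries (horizontal axis) for the 18430 genes tested. Red points are the 47 genes that rose, blue points the 51 that fell, and grey points did not pass the threshold; EIF2A is among the lower calls at high level.

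The genes that fell are given here one by one, as examples and not as tested groups. MIS18A (minus strand, chr21:32268219-32279069, GENCODE 29), a subunit of the complex that prepares centromeres for the histone variant CENP-A, had 1.28, 3.03 and 3.46 CPM with hairpin 1, against 14, 17.2 and 13.8 CPM with scramble. It fell by 2.52 ± 0.29 on the log2 scale (adjusted p = 0.00379), the largest fall among genes at a mean log2 CPM of at least 2, and every hairpin 1 library was below every scramble library. HIST1H2BJ, a replication-dependent H2B histone gene, had 102, 111 and 125 CPM with hairpin 1, against 292, 258 and 328 CPM with scramble (-1.38 ± 0.16, adjusted p = 0.00379). Histone genes have near-identical copies, so the division of reads between them is uncertain. XRCC2, a gene of homologous recombination, had 4.03, 7.23 and 7.01 CPM with hairpin 1, against 13, 13.9 and 13.6 CPM with scramble (-1.15 ± 0.22, adjusted p = 0.0435). ANP32E, a chaperone that removes the histone variant H2A.Z, fell by 1.30 (adjusted p = 0.0435). After GC correction MIS18A had -2.39 (adjusted p = 0.00203), HIST1H2BJ -1.39 (0.00136) and ANP32E -1.05 (0.00796), while XRCC2 had -0.90 and an adjusted p of 0.0736.

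EIF2A, TMED10, HSP90B1, CPD and KDELC2 also fell. EIF2A, a translation initiation factor that works apart from the eIF2 complex, had 210, 211 and 161 CPM with hairpin 1, against 516, 485 and 505 CPM with scramble (-1.37 ± 0.15, adjusted p = 0.00379). TMED10, a cargo receptor of vesicles between the endoplasmic reticulum and the Golgi apparatus, had 36.8, 66.8 and 73.5 CPM with hairpin 1, against 156, 185 and 150 CPM with scramble (-1.47 ± 0.23, adjusted p = 0.0287). Neither gene overlapped between the groups, and hairpin 1 replicate 1 was the lowest library for TMED10. HSP90B1, the endoplasmic reticulum form of the HSP90 chaperone, had 213, 331 and 199 CPM with hairpin 1, against 558, 570 and 533 CPM with scramble (-1.16 ± 0.20, adjusted p = 0.0351). CPD, a carboxypeptidase of the trans-Golgi network, had 65.3, 66.4 and 49.2 CPM with hairpin 1, against 164, 126 and 158 CPM with scramble (-1.31 ± 0.18, adjusted p = 0.0112). KDELC2, a resident of the endoplasmic reticulum, fell by 1.49 (adjusted p = 0.0435). Of these, EIF2A, TMED10, HSP90B1 and CPD passed after GC correction and KDELC2 did not (adjusted p = 0.0577).

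Further genes fell, among them PRKAR2B, RRAGD, CDC42 and CTSZ. PRKAR2B (plus strand, chr7:107044649-107161811), a regulatory subunit of the cyclic AMP dependent kinase, had 2.24, 2.35 and 2.11 CPM with hairpin 1, against 7.75, 10.5 and 8.26 CPM with scramble. It fell by 1.98 ± 0.20 (adjusted p = 0.00351), with libraries far apart and little spread within hairpin 1. RRAGD, a Rag GTPase that signals amino acid supply to mTORC1 at the lysosome, had 16.2, 23.2 and 23.3 CPM with hairpin 1, against 67.6, 54.8 and 63.7 CPM with scramble (-1.57 ± 0.20, adjusted p = 0.00923). CDC42, a small GTPase of the actin skeleton, had 80.6, 130 and 140 CPM with hairpin 1, against 227, 353 and 216 CPM with scramble (-1.18 ± 0.24, adjusted p = 0.048). The groups were apart for both, by a narrower gap for CDC42. CTSZ, a lysosomal cysteine protease, had 23.4, 17.8 and 25.7 CPM with hairpin 1, against 46.3, 43.8 and 46.2 CPM with scramble (-1.03 ± 0.17, adjusted p = 0.0302). BTBD1 fell by 1.33, MEGF9 by 1.33, DPYSL2 by 1.30 and TMEM154 by 1.42. The receptor TLR4 and the cholesterol exporter ABCA1 fell by 1.03 and 1.23, and these 2 did not pass after GC correction (adjusted p = 0.131 and 0.106), while PRKAR2B, RRAGD, CDC42, CTSZ, BTBD1, MEGF9, DPYSL2 and TMEM154 did.

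**Figure D3:**
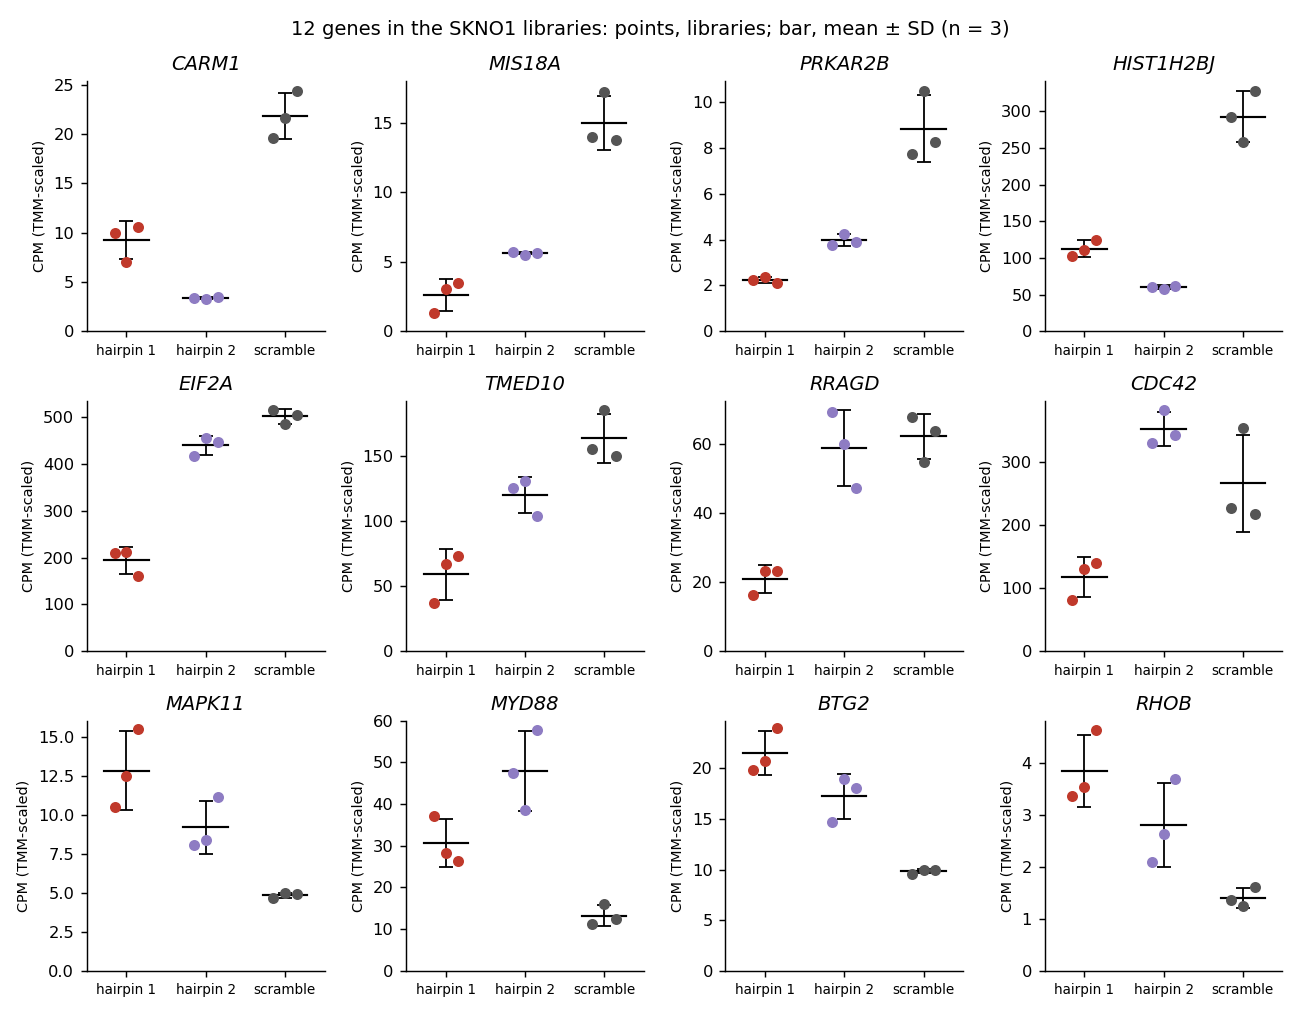
CPM (vertical axis of each panel, TMM-scaled) of 12 genes in the 3 libraries each of hairpin 1, hairpin 2 and scramble in SKNO1. Points are libraries and bars the mean ± SD (n = 3). EIF2A, TMED10 and RRAGD are lowest with hairpin 1, the hairpin 2 libraries overlap scramble for RRAGD and lie between the other groups for EIF2A and TMED10, and HIST1H2BJ is lowest with hairpin 2.

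The genes that rose included MAPK11, IRAK1 and MYD88. MAPK11, the beta form of the p38 stress kinase, had 10.5, 12.5 and 15.5 CPM with hairpin 1, against 4.64, 4.96 and 4.90 CPM with scramble (1.41 ± 0.20, adjusted p = 0.0177). IRAK1, a kinase of the interleukin 1 and Toll-like receptors, had 64.4, 62.3 and 86.4 CPM with hairpin 1, against 27.8, 28.9 and 33.7 CPM with scramble (1.24 ± 0.19, adjusted p = 0.0214). MYD88, the adaptor that brings IRAK kinases to those receptors, had 37.2, 28.4 and 26.4 CPM with hairpin 1, against 11.3, 16.0 and 12.4 CPM with scramble (1.21 ± 0.21, adjusted p = 0.0398). In all 3 genes each hairpin 1 library lay above each scramble library. PTPRCAP, a protein bound to the phosphatase CD45, had 23.2, 28 and 39.1 CPM with hairpin 1, against 10.2, 10.2 and 14.2 CPM with scramble (1.38 ± 0.25, adjusted p = 0.0401). SIPA1, a GTPase-activating protein for Rap, rose by 1.2, RGS14, a regulator of G protein signalling, by 1.07, and ORAI1, the pore subunit of store-operated calcium channels, by 1.04. After GC correction IRAK1 passed (0.84, adjusted p = 0.0481), and MAPK11 (1.01, adjusted p = 0.0707), MYD88 (1.11, adjusted p = 0.0507), PTPRCAP (adjusted p = 0.0736), SIPA1 (0.0884), RGS14 (0.0757) and ORAI1 (0.0707) did not.

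ITGA5, NRBP1 and BTG2 rose as well. ITGA5, the alpha chain of the fibronectin receptor, had 414, 291 and 354 CPM with hairpin 1, against 189, 140 and 186 CPM with scramble (1.04 ± 0.18, adjusted p = 0.0351). NRBP1, a pseudokinase, had 134, 152 and 154 CPM with hairpin 1, against 64.8, 81.4 and 64.9 CPM with scramble (1.06 ± 0.16, adjusted p = 0.0198). BTG2, an antiproliferative gene of the immediate early class that p53 also induces, had 19.9, 20.7 and 24.0 CPM with hairpin 1, against 9.59, 10.0 and 10.0 CPM with scramble (1.13 ± 0.17, adjusted p = 0.0198). These 3 genes passed after GC correction too (0.86, 0.93 and 1.07 on the log2 scale). SH3TC1 rose by 1.37, the membrane protease MMP15 by 1.09, the lipid scramblase XKR8 by 1.05, the endophilin SH3GL1 by 1.03 and the ubiquitin ligase TRIM8 by 1.02, none of which passed after it. HBB, the beta chain of adult haemoglobin, had 20, 19 and 24 expected counts with hairpin 1 and 0 in each scramble library. Hairpin 2 libraries held 33, 25 and 21 expected counts of HBB, and the call of HBB for hairpin 1 also passed after GC correction (adjusted p = 0.00542). KLF1, an erythroid transcription factor, had 4.83, 3.13 and 4.02 CPM with hairpin 1, against 1.71, 2.26 and 2.29 CPM with scramble (0.93, adjusted p = 0.096, and 0.44 after GC correction), and the 13 erythroid markers together had 8.07 to 15.3 CPM with hairpin 1 and 6.94 to 11 CPM with scramble, their part in the HBB result not tested.

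In MV411, with its own scramble libraries, hairpin 1 moved a share of the same genes. Of 17816 genes tested there, 1159 were called (6.51%), 423 higher (2.37%) and 736 lower (4.13%). Of the 98 SKNO1 genes, 89 were tested in MV411, 75 had the same sign, and 32 were called in the same direction. That is 32.7% of the SKNO1 calls and 2.76% of the MV411 calls. By direction, 20 of the 51 lower genes and 12 of the 47 higher genes were shared, and TLR4 was the single gene called in opposite directions (0.79 in MV411). Of the 64 genes called after GC correction in SKNO1, 34 were called in the same direction in MV411 and 56 of 58 tested had the same sign.

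EIF2A, TMED10 and CPD were among the shared lower genes, while HSP90B1 and KDELC2 had -0.58 and -0.99 in MV411 and did not pass there (adjusted p = 0.269 and 0.109). EIF2A had 45.8, 56.8 and 65.3 CPM with hairpin 1 in MV411, against 130, 119 and 163 CPM with scramble (-1.29, adjusted p = 0.00782). TMED10 had 102, 99.4 and 123 CPM with hairpin 1 in MV411, against 303, 219 and 334 CPM with scramble (-1.40, adjusted p = 0.0115). For both, all hairpin 1 libraries of MV411 were below all its scramble libraries. PRKAR2B fell there by 1.71, CDC42 by 1.08, BTBD1 by 1.07, RRAGD by 0.91, CPD by 0.79 and CTSZ by 0.75. Among the higher genes, BTG2 rose there by 1.41, RHOB by 1.55, MAPK11 by 0.94, NRBP1 by 0.75 and ITGA5 by 0.62. IRAK1 and MYD88 had 0.02 and 0.64 in MV411 (adjusted p = 0.969 and 0.114). The hairpin 1 effect on IRAK1 differed between SKNO1 and MV411 (adjusted p = 0.0224), and that on MYD88 did not pass (adjusted p = 0.603).

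**Figure D4:**
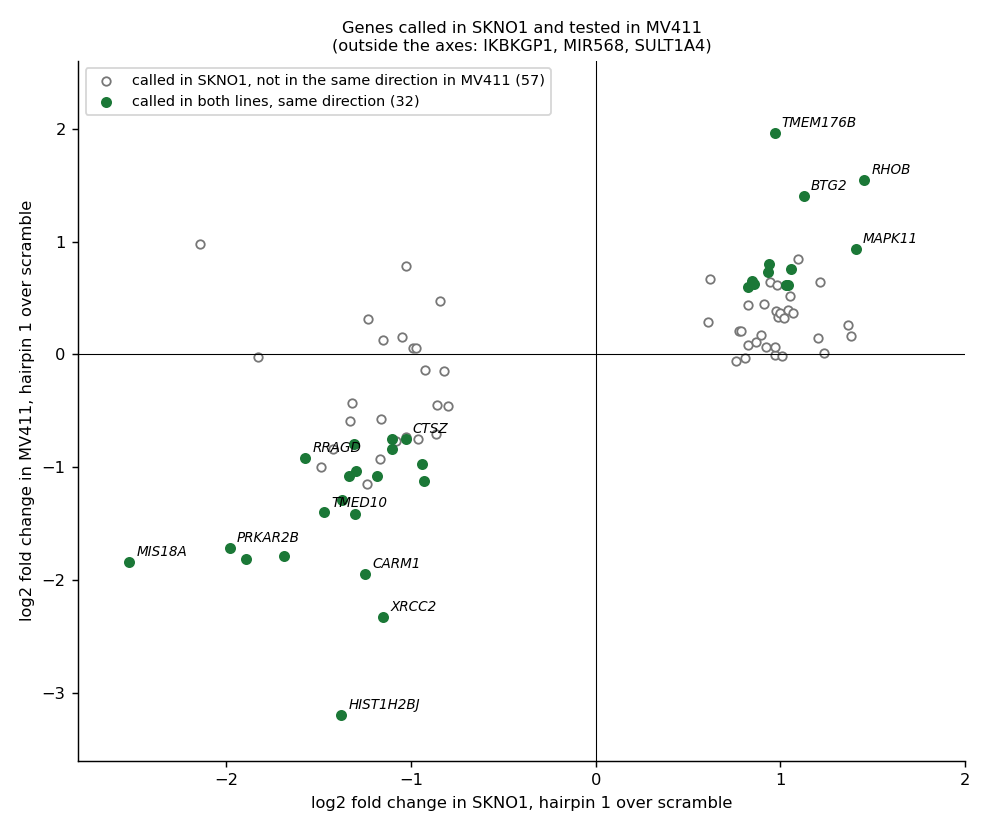
Log2 fold change of hairpin 1 over scramble in SKNO1 (horizontal axis) and in MV411 (vertical axis) for the 89 genes called in SKNO1 and tested in MV411. Filled points are the 32 genes called in both lines in the same direction; MIR568, SULT1A4 and IKBKGP1 lie outside the axes.

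Hairpin 1 and hairpin 2 target the same gene, and their effects in SKNO1 were compared directly. The 2 hairpins differed for 1754 genes (9.52%), 921 higher (5%) and 833 lower (4.52%) with hairpin 1. Both this comparison and the one above use the same hairpin 1 libraries, so the values are set side by side without a test of their overlap. CTSZ had 23.4, 17.8 and 25.7 CPM with hairpin 1 and 73.6, 74.6 and 77.3 CPM with hairpin 2, where it had risen over scramble by 0.73 (log2 difference -1.75, adjusted p = 0.000139). ABCA1 had 8.44, 7.67 and 7.19 CPM with hairpin 1, 31.3, 45.8 and 39.5 CPM with hairpin 2 and 21.5, 11.7 and 21.5 CPM with scramble. It was thus on opposite sides of scramble with the 2 hairpins, which share these scramble libraries. In the other direction CLEC11A, a growth factor for blood progenitors, had 301, 284 and 378 CPM with hairpin 1, 95.9, 106 and 133 CPM with hairpin 2 and 154, 150 and 184 CPM with scramble.

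Of the 98 genes, 44 were also called in the same direction with hairpin 2 over the shared scramble libraries, 30 of the 47 higher and 14 of the 51 lower genes. The sign was the same for 82, and 2 were called in opposite directions. MIS18A had log2 fold changes over scramble of -2.52 with hairpin 1 and -1.41 with hairpin 2, XRCC2 -1.15 and -1.70, HIST1H2BJ -1.38 and -2.28, MYD88 1.21 and 1.86, and BTG2 1.13 and 0.81. Among genes at a mean log2 CPM of at least 2, the widest differences above hairpin 2 were in BSG (2.5), DDN (2.39), KIAA0101 (2.38), IGLL1 (2.32) and PPT1 (2.21). The widest below it were in ENPP2 (-2.92), P2RY14 (-2.58), SIPA1L2 (-2.46), ABCA1 (-2.32) and IPCEF1 (-2.25). Of these 10 genes, ABCA1 was the only one called for hairpin 1 against scramble. The count was 601, 832 and 945 without hairpin 2 replicate 2, 3 or 1, 963 without hairpin 1 replicate 3, and 2971 after GC correction.

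A set of 15 genes fell with hairpin 1 in SKNO1 and in MV411 and were also lower than with hairpin 2 in both lines. Among them are PRKAR2B, RRAGD, TMED10, EIF2A, BTBD1, CPD, ANP32E, DPYSL2, CDC42 and CTSZ. The set was made from these values and is therefore given without a test. Their median log2 ratio to the scramble mean of the line was -1.43, -1.25 and -1.41 in the hairpin 1 libraries of SKNO1 and -0.02, 0.02 and -0.16 in its hairpin 2 libraries. Of the 15 genes, 5, 4 and 7 lay below every scramble library in hairpin 2 replicates 1, 2 and 3 of SKNO1. PRKAR2B also fell with hairpin 2 there (log2 fold change -1.15, edgeR, adjusted p = 0.00338). In MV411 the median ratio was -1.26, -1.14 and -0.89 with hairpin 1 and 0.23, -0.13 and 0.56 with hairpin 2. In MOLM13, where 14 of the genes were measured and which the choice did not use, the library labelled hairpin 1 replicate 1 had 0.40 and replicates 2 and 3 had -1.04 and -1.05. The library labelled hairpin 2 replicate 1 had -1.18, and replicates 2 and 3 had -0.39 and 0.49. By these genes the library labelled hairpin 1 replicate 1 lay above the scramble mean, against the other libraries of its label, and the library labelled hairpin 2 replicate 1 lay as low as hairpin 1 replicates 2 and 3. CARM1 had 2.52, 5.13 and 4.82 CPM in the MOLM13 libraries labelled hairpin 1, 4.40, 3.92 and 2.44 CPM in those labelled hairpin 2, and 17.6, 25.1 and 22 CPM with scramble. No library was moved to another group, the cause was not tested, and the counts of MOLM13 calls below are given with and without the library labelled hairpin 1 replicate 1.

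In MOLM13 the libraries labelled hairpin 1 gave 1131 calls of 17732 genes (6.38%), 378 higher (2.13%) and 753 lower (4.25%), and 577 calls without replicate 1. Of the 98 SKNO1 genes, 87 were tested, 62 had the same sign and 12 were called in the same direction, 6 lower and 6 higher, or 12.2% of the SKNO1 calls and 1.06% of those of MOLM13. Without that library, 12 of 88 tested were called in the same direction and 67 had the same sign. In all 3 lines 7 genes were called in the same direction: CARM1, MIS18A, HIST1H2BJ and XRCC2 fell, and BTG2, RHOB and TMEM176B rose. All 7 passed in MOLM13 also without that library. TMEM176B, named after its values were seen, had 19.3, 17.1 and 15.8 CPM with hairpin 1 in SKNO1, against 10.1, 7.47 and 9.14 CPM with scramble (0.97, adjusted p = 0.042), and rose by 3.35 in MOLM13 (3.20 without that library) and 1.96 in MV411. After GC correction in SKNO1 it had 0.71 (adjusted p = 0.0736). EIF2A had -0.74 in MOLM13 (adjusted p = 0.407) and -1.45 without the library labelled hairpin 1 replicate 1 (adjusted p = 0.102).

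Many proliferation genes responded to hairpin 1 differently in SKNO1 and in the other lines. Of 58 tested genes of the E2F and DNA replication list, none was called in SKNO1, 24 had an unadjusted p below 0.05 and a lower level (7.49% of all genes did), and the median log2 fold change was -0.51, against -0.02 for all genes. In MOLM13 49 of them and in MV411 50 of them were called lower, with medians of -1.62 and -1.93. Without the MOLM13 library labelled hairpin 1 replicate 1 it was 43 in MOLM13, with a median of -1.58. The effect of hairpin 1 was higher, that is less negative, in SKNO1 for 26 of the 58 against MV411 and for 25 against MOLM13, and lower for 0. Over all 21262 genes of that fit the effect differed for 209 genes against MV411 (0.983%), 175 of them higher in SKNO1 (0.823%) and 34 lower (0.16%), and for 970 against MOLM13 (4.56%), 659 of them higher (3.1%) and 311 lower (1.46%). Without the MOLM13 library labelled hairpin 1 replicate 1 the difference passed for 17 of the 58 and for 699 genes in all. The counts of 209 and 970 were 48 and 246 without SKNO1 hairpin 1 replicate 3, 45 and 273 without scramble replicate 1, and 57 and 418 without scramble replicate 3. Without scramble replicate 2 of SKNO1 the median of the list in SKNO1 was -0.25, and after GC correction it was -0.43. CARM1 RNA left with hairpin 1 was 42.1% ± 8.80 in SKNO1, 19.3% ± 6.61 in MOLM13 and 26.0% ± 1.28 in MV411 (SD, n = 3 each). In MOLM13 it was 11.7% in the library labelled hairpin 1 replicate 1 and 23.8% and 22.4% in replicates 2 and 3. The line, the GM-CSF supplement and the depth of the knockdown cannot be told apart in these differences.

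Single replication genes lay near the threshold. PRIM1, the primase of DNA replication, had 22, 22.9 and 20.4 CPM with hairpin 1, against 36.8, 43.0 and 34.6 CPM with scramble (-0.81, adjusted p = 0.0591). CHAF1B, a subunit of the chromatin assembly factor behind the fork, had 6.52, 4.91 and 7.66 CPM with hairpin 1, against 10.2, 12.1 and 11.1 CPM with scramble (-0.81, adjusted p = 0.103). RFC5, a clamp loader subunit, had 10.0, 14.9 and 17.1 CPM with hairpin 1, against 21.8, 27.8 and 21.2 CPM with scramble (-0.75, adjusted p = 0.116). All 3 were below scramble in every library. After GC correction they had -0.55, -0.81 and -0.61 (adjusted p = 0.168, 0.0819 and 0.112). DESeq2 called 9 of the 58 genes lower, against 364 of all 18426 genes, and limma-voom called 0 of the 58. With hairpin 2 in SKNO1, 43 of the 58 genes were called lower (median -0.96), against 5.69% of all genes.

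Mitosis genes were counted in the same way. Of 54 tested, none was called with hairpin 1 in SKNO1 by edgeR, 1 by DESeq2 (973 of all 18426 genes) and 0 by limma-voom. An unadjusted p below 0.05 and a lower level were found for 14, against 7.49% of all genes. The median was -0.44, with BUB1, a spindle checkpoint kinase, at -0.77 (adjusted p = 0.128). In MOLM13 53 (46 without the library labelled hairpin 1 replicate 1) and in MV411 48 were called lower. The effect was higher in SKNO1 for 19 against MV411 and 14 against MOLM13 (9 without the library labelled hairpin 1 replicate 1). The mitotic kinase AURKB had a log2 fold change of 0.18 in SKNO1 and -3.54 in MV411 (difference 3.72, adjusted p = 0.000439). The median of the list in SKNO1 was -0.15 without scramble replicate 2 and -0.29 after GC correction. Of 29 genes of homologous recombination and the Fanconi anaemia pathway, XRCC2 alone was called, 15 had an unadjusted p below 0.05 and a lower level, against 7.49% of all genes, and the median was -0.56. After GC correction none was called, 14 had an unadjusted p below 0.05 and a lower level, and the median was -0.39. Of all 18430 genes, 2591 had an unadjusted p below 0.05 in either direction after the correction. FANCD2, a clamp of interstrand crosslink repair, had -0.84 (adjusted p = 0.117) and EME1, a nuclease subunit, -0.83 (adjusted p = 0.102).

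Replication-dependent histone genes also differed between the lines. Of 67 tested in SKNO1, HIST1H2BJ alone was called, and the median was 0.06. Of these 67 genes, 41 in MOLM13 and 53 in MV411 were called lower with hairpin 1, with medians of -1.85 and -1.93. Without the MOLM13 library labelled hairpin 1 replicate 1, 15 of the 65 histone genes tested in MOLM13, a different set, were called lower, with a median of -1.70. Among the 67, the effect of hairpin 1 was higher in SKNO1 for 30 against MV411 and for 37 against MOLM13. Without the MOLM13 library labelled hairpin 1 replicate 1, it was higher for 13 of the 74 histone genes tested in the fit of all lines. HIST1H4I had 0.04 in SKNO1 (adjusted p = 0.943), against -3.46 in MV411 and -2.84 in MOLM13, where it was -2.76 without that library (adjusted p = 0.0516). The list median in SKNO1 was 0.42 without scramble replicate 2 and -0.15 after GC correction. The libraries were made from total RNA depleted of ribosomal RNA, which keeps histone transcripts that lack a poly(A) tail.

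**Figure D5:**
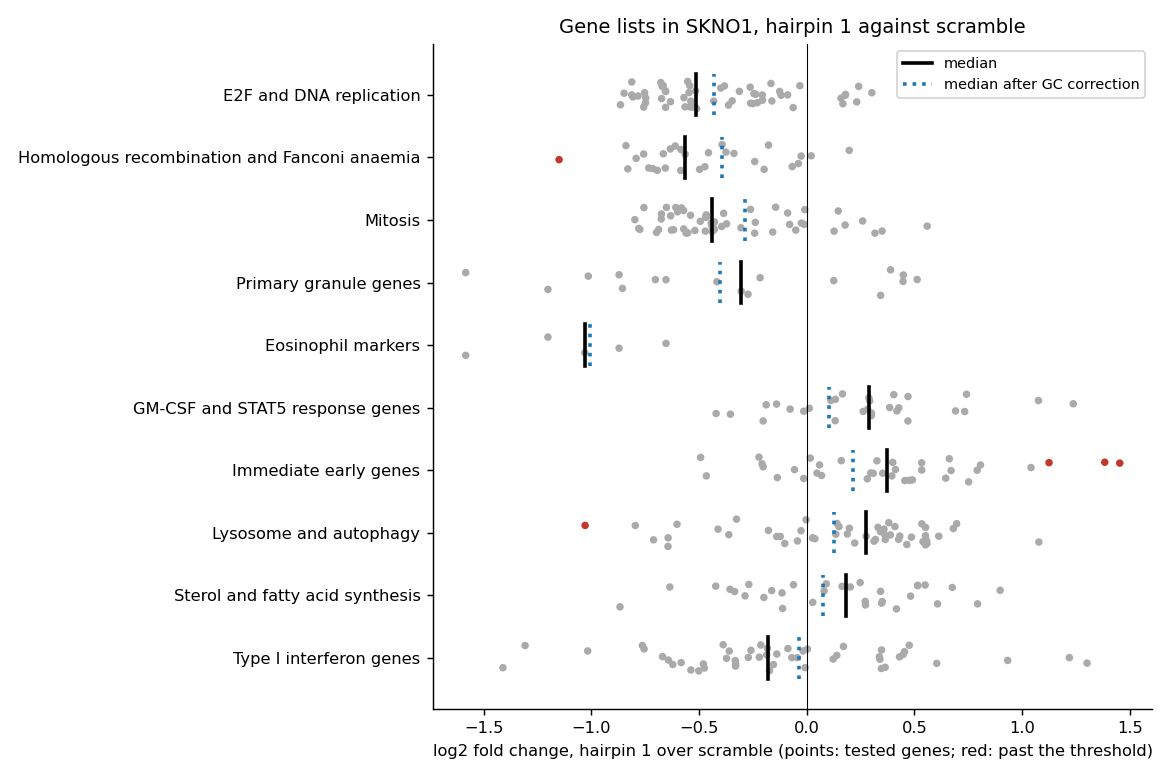
Log2 fold change of hairpin 1 over scramble in SKNO1 (horizontal axis) for the tested genes of 10 lists (rows). Points are genes, red where past the threshold, black bars the list medians and dotted blue bars the medians after GC correction. Replication, repair and mitosis medians lie below 0 and that of immediate early genes above 0.

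Ribosomal protein genes had mostly positive values. Of 78 tested, 67 had a log2 fold change above 0, 30 had an unadjusted p below 0.05 and a higher level, against 9.46% of all genes, none of them past the adjusted threshold, and the median was 0.27. After GC correction the median was 0.22, with 29 higher at an unadjusted p below 0.05. Of all 18430 genes, 2591 reached that p in either direction after the correction. RPLP1, an acidic stalk protein, had 1432, 1103 and 1282 CPM with hairpin 1, against 767, 707 and 890 CPM with scramble (0.69, adjusted p = 0.0744, and 0.78 after GC correction). RPS2 had 0.57 and RPL13 0.53 (adjusted p = 0.117 and 0.115), and 0.33 and 0.30 after GC correction. Of the 46 genes of ribosome biogenesis and MYC targets, none was called by edgeR or limma-voom and 6 by DESeq2, which called 973 of all 18426 genes. An unadjusted p below 0.05 was reached by 13, against 17% of all genes. SRM, the spermidine synthase, had 0.92 (adjusted p = 0.0744, and 0.48 after GC correction). Ribosomal protein genes have many processed copies, so their reads may be shared with them.

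Of 36 immediate early genes 3 were called higher, against 0.255% of all genes, and 11 had an unadjusted p below 0.05 and a higher level, against 9.46% of all genes. The median was 0.37, and 0.21 after GC correction, where 1 was called, against 64 of all 18430 genes. Beside BTG2, RHOB, a stress-induced small GTPase, had 3.36, 3.52 and 4.64 CPM with hairpin 1, against 1.35, 1.24 and 1.60 CPM with scramble (1.45 ± 0.26, adjusted p = 0.0401). MIDN, midnolin, had 6.43, 4.46 and 5.22 CPM with hairpin 1, against 2.09, 1.85 and 2.22 CPM with scramble (1.38 ± 0.23, adjusted p = 0.0332). Both were higher in every hairpin 1 library, and after GC correction their adjusted p was 0.0732 and 0.0507. Of 29 targets of GM-CSF and STAT5, the pathway that the supplement of the medium drives, none was called by edgeR or limma-voom. DESeq2 called 4, against 973 of all 18426 genes. At an unadjusted p below 0.05, 9 were higher, against 9.46% of all genes, and none was lower. The median was 0.29, and 0.10 after GC correction. CISH, a feedback inhibitor of STAT5, had 85.7, 79.9 and 78.1 CPM with hairpin 1, against 44.2, 53.1 and 48.4 CPM with scramble (0.74, adjusted p = 0.0839). The receptor chain IL3RA had 0.73 and SOCS3, another feedback inhibitor, 1.08 (adjusted p = 0.125 and 0.0839). After GC correction CISH, IL3RA and SOCS3 had 0.51, 0.59 and 0.78 (adjusted p = 0.224, 0.183 and 0.282).

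Myeloid and immune genes showed few calls with hairpin 1. Over all genes tested, 9.46% were higher and 7.49% lower at an unadjusted p below 0.05. DESeq2 called 973 of 18426 genes. Hairpin 2 over scramble gave 5.54% higher and 5.69% lower calls. Of 33 mature myeloid genes TLR4 alone was called, against 10 called higher with hairpin 2 over the same scramble libraries. Of 17 primary granule genes none was called, with 6 at an unadjusted p below 0.05 and 3 called lower by DESeq2. SRGN, the granule proteoglycan, had 91.6, 88.1 and 96.2 CPM with hairpin 1, against 153, 150 and 146 CPM with scramble (-0.70, adjusted p = 0.0546, and -0.40 after GC correction). All 5 tested eosinophil markers had negative values, with a median of -1.03. None was called, with 4 at an unadjusted p below 0.05, also after GC correction (2591 of all 18430 genes), and 2 called by DESeq2. Their summed level was 72.7 to 132 CPM with hairpin 1 and 118 to 246 CPM with scramble. In these bulk samples fewer cells of a type and less RNA per cell cannot be told apart. Of 50 interferon genes none was called with hairpin 1 by edgeR and 5 by DESeq2, with 4 higher and 9 lower at an unadjusted p below 0.05, and 22 were called higher with hairpin 2. Of 10 HLA class II genes none was called with hairpin 1 by either tool, with 0 at an unadjusted p below 0.05, and 8 were called higher with hairpin 2. Of 31 NF-kB genes none was called by edgeR and 3 by DESeq2, with 2 higher and 5 lower at an unadjusted p below 0.05. BIRC3, an inhibitor of apoptosis, had 25.5, 37.0 and 13.8 CPM with hairpin 1, against 69.5, 34.7 and 67.4 CPM with scramble, with overlapping groups (-1.17, adjusted p = 0.12). BIRC3 rose with hairpin 1 by 3.44 in MOLM13 (3.11 without the library labelled hairpin 1 replicate 1) and 1.87 in MV411. Of the 24 RUNX1-RUNX1T1 signature genes CLEC11A alone was called, and it did not pass after GC correction (0.44, adjusted p = 0.209). CEBPA, a myeloid regulator that the fusion represses, had 8.22, 9.11 and 11.5 CPM with hairpin 1, against 5.20, 6.09 and 5.37 CPM with scramble (0.79, adjusted p = 0.102). After GC correction CEBPA had 0.28 (adjusted p = 0.615).

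Of 51 lysosome and autophagy genes CTSZ alone was called, as lower, while the median of the list was 0.28, and 0.13 after GC correction. Of 32 genes of sterol and fatty acid synthesis none was called by edgeR and 6 by DESeq2, which called 973 of all 18426 genes. At an unadjusted p below 0.05, 10 were higher and 2 lower, against 9.46% and 7.49% of all genes. FASN, the fatty acid synthase, had 0.90 (adjusted p = 0.083), and 0.45 after GC correction. With hairpin 2 over the same scramble libraries 15 of the 32 were called lower, against 5.69% of all genes. Of the 32, 15 were higher with hairpin 1 than with hairpin 2, against 5% of all genes.

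The promoters of called genes were read from RefSeq (GRCh38.p14), 250 bases before the annotated start, for 32 of the 47 higher and 36 of the 51 lower genes and 11433 of all tested. The sequences are shown for a set of genes that the results above turn on. Capitals mark, on either strand, the CCAAT box (CCAAT), TATA box (TATAAA), ETS element (CGGAAG), E-box (CACGTG), CRE (TGACGTCA), octamer (ATTTGCAT) and the endoplasmic reticulum stress element (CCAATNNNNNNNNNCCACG, which holds a CCAAT box). The intervals are chr14:75176613-75176862, minus strand, for TMED10, chr6:27132796-27133045, minus strand, for HIST1H2BJ (H2BC11 in RefSeq), and chr3:150546537-150546786, plus strand, for EIF2A. They are chr12:103930160-103930409, plus strand, for HSP90B1, chr1:203305269-203305518, plus strand, for BTG2, and chr2:20446824-20447073, plus strand, for RHOB.
TMED10: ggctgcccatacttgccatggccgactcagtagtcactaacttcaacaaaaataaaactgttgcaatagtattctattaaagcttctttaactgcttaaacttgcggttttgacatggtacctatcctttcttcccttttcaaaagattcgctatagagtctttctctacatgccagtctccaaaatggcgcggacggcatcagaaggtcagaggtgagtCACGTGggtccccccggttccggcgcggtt
HIST1H2BJ: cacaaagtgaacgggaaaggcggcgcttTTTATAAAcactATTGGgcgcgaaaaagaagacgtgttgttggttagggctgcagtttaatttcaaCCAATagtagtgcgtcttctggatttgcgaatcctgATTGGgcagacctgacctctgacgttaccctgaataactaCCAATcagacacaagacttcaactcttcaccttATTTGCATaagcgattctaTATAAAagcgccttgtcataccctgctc
EIF2A: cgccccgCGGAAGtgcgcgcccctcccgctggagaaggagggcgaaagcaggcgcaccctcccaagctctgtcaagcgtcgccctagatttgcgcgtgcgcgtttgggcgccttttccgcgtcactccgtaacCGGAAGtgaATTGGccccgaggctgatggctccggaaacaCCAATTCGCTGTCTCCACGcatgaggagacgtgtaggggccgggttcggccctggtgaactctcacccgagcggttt
HSP90B1: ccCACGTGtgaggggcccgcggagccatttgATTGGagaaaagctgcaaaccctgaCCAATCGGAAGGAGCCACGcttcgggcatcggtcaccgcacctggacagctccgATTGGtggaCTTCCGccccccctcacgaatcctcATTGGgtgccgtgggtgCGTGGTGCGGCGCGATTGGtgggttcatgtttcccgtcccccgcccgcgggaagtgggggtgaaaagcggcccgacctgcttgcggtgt
BTG2: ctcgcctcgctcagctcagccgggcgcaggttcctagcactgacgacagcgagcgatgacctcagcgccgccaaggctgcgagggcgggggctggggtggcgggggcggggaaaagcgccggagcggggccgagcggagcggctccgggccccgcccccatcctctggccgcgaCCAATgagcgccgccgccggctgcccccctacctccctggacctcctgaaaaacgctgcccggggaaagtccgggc
RHOB: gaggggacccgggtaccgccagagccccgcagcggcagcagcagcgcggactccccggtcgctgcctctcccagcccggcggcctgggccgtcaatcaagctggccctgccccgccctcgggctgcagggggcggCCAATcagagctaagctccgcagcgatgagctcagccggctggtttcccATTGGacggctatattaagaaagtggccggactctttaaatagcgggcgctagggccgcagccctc

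EIF2A and HSP90B1, which both fell, held the stress element, the binding sequence of ATF6 with NF-Y, in these windows. It stood in 2 of the 36 lower windows (5.56%), 0 of the 32 higher windows, 16 of the 11433 windows of tested genes (0.14%) and 25 of all 27305 promoters in the table (0.0916%). The other tested genes with the element did not pass the test: the chaperone HSPA5 had -0.05, CALR 0.15, CANX -0.39 and XBP1 0.23. SERP1 had 0.06. Of 22 tested genes of the unfolded protein response HSP90B1 alone was called, and EIF2AK3, the sensor kinase PERK, had 10.6, 15.8 and 12.1 CPM with hairpin 1, against 22.9, 21.3 and 21.5 CPM with scramble (-0.77, adjusted p = 0.0839). The HIST1H2BJ window held the octamer, TATA and CCAAT boxes known from H2B promoters. A CCAAT box stood in 43.8% of higher and 30.6% of lower windows, against 40.6% of tested and 37% of all windows, and a TATA box in 3.12% and 13.9%, against 8.38% and 13%. The ETS element stood in 25% and 30.6%, against 32.4% and 19.4%, the E-box in 12.5% and 16.7%, against 10.8% and 7.73%, the CRE in 6.25% and 5.56%, against 3.33% and 2.03%, and the octamer in 0% and 2.78%, against 1.99% and 2.03%. A GC box (GGGCGG, left in lower case) stood in 84.4% and 80.6%, against 71.1% and 46.2%. Median GC content of the windows was 71.4% for higher and 66.4% for lower genes, against 64.4% for tested genes and 58% for all. A match describes these letters only and is not a bound site.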

How the data were processed

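Total RNA depleted of ribosomal RNA was sequenced from 27 libraries with a stranded kit, per the labels' protocols. The authors deposited expected counts per gene; the submitters' processing notes name STAR 2.5.3, RSEM (version not given) and GRCh38.p7. Of the non-zero values 30.4% are not whole, and they were rounded here before testing. The 9 SKNO1 libraries were fitted together with edgeR 4.0.16 in R 4.3.3 (quasi-likelihood test, two-sided, filterByExpr with a minimum count of 10 and a minimum total of 15, TMM, Benjamini-Hochberg adjustment over all genes tested, threshold 0.05). Differences between lines are contrasts in a fit of all 27 libraries. Means of log2 CPM use a prior count of 2. Positions come from GENCODE 29, which matched 57388 of 57992 gene IDs, and 1324 of 1326 symbols of 55 gene lists were found. Alternatives used limma-voom 3.58.1, DESeq2 1.42.0, other scalings and filters, single libraries left out, and a GC correction added after seeing the data (offsets from each library's trend over transcript GC content).

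Genes named are CARM1 and the other arginine methyltransferases; per direction the 15 largest called changes with a mean log2 CPM of at least 2 and no overlap between groups; from each list up to 3 members of the commoner direction and 1 of the opposite one by smallest p, with those needed for a count of 5 or fewer; up to 5 per direction for hairpin 1 against hairpin 2 and between lines; and up to 3 genes at 0 in 1 group. Other genes were chosen after their values were seen, and some genes that meet these rules are not reported here. The members and lists were chosen with earlier results of these data known. The tests were run on simulated counts drawn independently for each library. These do not hold the GC trends of the real libraries or the likeness of scramble replicates 1 and 3, so the error rate in these data was not checked. Depth gives counting error only; the libraries of the series held 25063577 to 53291599 expected counts. Scramble replicates 1 and 3 were more alike (chi-square per gene 7.76) than other SKNO1 pairs (40.2 to 107) but differed by more than counting error, and were kept as 2 samples. The median chi-square over genes was 1.06 for them, against 3.14 to 10.7 for the other pairs.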

Additional observations from a re-analysis of the deposited data

Results flagged for a closer look

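The effect of hairpin 1 in SKNO1 differed from that in MOLM13 for 970 genes and from that in MV411 for 209 genes, by the edgeR interaction contrast with adjustment over all genes tested. Each gene below was named because that difference passed the threshold; the log2 fold changes of SKNO1 and of the other line follow the difference.

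Against MOLM13 the difference was 3.03 for PHGDH, the first enzyme of serine synthesis (0.03 and -2.99), 2.98 for HIST2H3C (0.30 and -2.68), 2.89 for HIST1H4I (0.04 and -2.84) and 2.69 for CH507-24F1.2 (-0.48 and -3.16). In the other direction it was -6.63 for MIR3142HG (-0.60 and 6.01), -4.61 for BIRC3 (-1.17 and 3.44), -3.63 for the complement gene C3 (0.56 and 4.19), -3.38 for the cytokine gene IL1B (-0.57 and 2.83) and -3.16 for SIRPB2 (-1.45 and 1.71). PITX1 had a fitted difference of 6.24 (1.21 in SKNO1), which gives no size: it did not pass the count filter in MOLM13, where it had 0, 1 and 0 expected counts with hairpin 1, against 2, 49 and 1 with scramble, so that the value rests on 1 scramble library. Without the MOLM13 library labelled hairpin 1 replicate 1, PITX1 had 5.92 (adjusted p = 0.0633), HIST2H3C 2.62 (adjusted p = 0.0576) and IL1B -2.39 (adjusted p = 0.0521), past the threshold no longer, and the other 7 genes passed.

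Against MV411 the difference was 3.72 for the mitotic kinase gene AURKB (0.18 and -3.54), 3.50 for HIST1H4I (0.04 and -3.46), 3.46 for the cell cycle transcription factor gene MYBL2 (-0.01 and -3.47), 3.36 for TCF19 (-0.03 and -3.40) and 3.17 for HIST1H2AJ (0.14 and -3.02). In the other direction it was -3.05 for BIRC3 (-1.17 and 1.87), -2.53 for F3, the tissue factor gene (-1.30 and 1.23), -2.06 for PDE4B, a cyclic AMP phosphodiesterase gene (-0.66 and 1.40), -1.87 for NEB (-0.46 and 1.40) and -1.83 for SERINC2 (-0.70 and 1.12). AURKB had 10.8, 8.93 and 13.4 CPM with hairpin 1 in SKNO1, against 9.82, 10.1 and 9.39 CPM with scramble. In MV411 it had 1.60, 1.27 and 1.26 CPM with hairpin 1, against 22.6, 8.11 and 17.6 CPM with scramble. No SKNO1 value of these genes passed the threshold by itself.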

How the results depend on the processing

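Of the 98 genes called, 95 kept their sign under all 16 alternatives, and PRKAR2B was among those called under every one. RN7SL2, RMRP and SULT1A4 kept it in 15, and no called gene had a tested value of the opposite sign. The number called was 774 with no filter on low counts, 7 with only the 6 libraries fitted, 973 with DESeq2 (609 higher, 364 lower), 4 with scramble replicates 1 and 3 taken as 1 library, 64 after GC correction and 3 to 411 with 1 library left out. It was 86 with RLE scaling and 69 with limma-voom. The share of higher calls was 48.0% in the edgeR fit, 14.3% with 6 libraries, 25% after GC correction, 62.6% with DESeq2 and 64.4% (73 genes) without structured RNAs in the library size. CARM1 had -1.25 (adjusted p = 0.0935) with 6 libraries and -1.22 (adjusted p = 0.133) with the merged scramble libraries, and -1.40 to -1.08 with 1 library left out. Hairpin 1 against hairpin 2 gave 2971 genes after GC correction and 601 to 2045 with 1 library left out. The difference between lines gave 246 to 1160 genes against MOLM13 and 45 to 304 against MV411 with 1 library left out, and 645 against MV411 with no filter. PRMT9, at 0.01, had the opposite sign with the replicate block (-0.0105), with limma-voom (-0.0191) and without hairpin 1 replicate 2 (-0.26), and ranged from -0.26 to 0.126 with 1 library left out. The cause of these changes was not tested, and some of these fits also held fewer samples.

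Replicate numbers were not shown to pair the samples: same-numbered hairpin 1 and scramble libraries had correlations of 0.501, 0.595 and 0.0340, and hairpin 1 replicate 1 correlated best with scramble replicate 3 (0.547). With the replicate number as a block 458 genes were called, 86 with block and GC correction, 2365 for hairpin 1 against hairpin 2, and 1452 and 298 for the differences from MOLM13 and MV411; CARM1 had -1.26.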
